A study of Mus musculus with 34 samples.

Results

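Translational efficiency, the footprint signal of a gene relative to its RNA signal, was described for the hippocampus of control mice, gene by gene. For each of the 3 control pairs of libraries with the same replicate number, TE was taken as log2((footprint signal + 1)/(RNA signal + 1)) minus the value of the median gene, so that 0 marks the median gene and 1 a 2-fold higher ratio. Genes with a signal of at least 1 in all 6 control libraries were ranked by their mean TE. This took in 6725 of the 11531 genes of the deposited tissue tables. Of the 4806 others, 949 fell short in the footprints alone, 821 in the RNA alone and 3036 in both. Since the control values set the ranking, they are given as a description, and tests were run only in conditioned mice, whose libraries the ranking did not use.

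Footprints and RNA were sequenced from hippocampi of C57BL/6N mice: a control group without stimulus, and groups taken at 4 times after contextual fear conditioning (5, 10 and 30 min, and 4 h), for which handled, single-caged mice received a foot shock. Each group had 3 libraries of each kind. The labels do not say that these came from separate mice, and p-values therefore measure the spread between libraries only, part or all of which may be technical. One hippocampal primary culture (C57BL/6N) and one embryonic stem cell culture (line A3-1, treated for 48 h with a siRNA for luciferase) had 1 pair of libraries each. All lysates held cycloheximide, which keeps ribosomes on mRNA, and ribosome complexes were purified on Sephacryl columns.

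In ribosome profiling, the short stretches of mRNA that ribosomes shield from nuclease are sequenced, and their number beside the mRNA's own reads serves as a measure of how densely an mRNA is occupied. Dense occupation may come from frequent initiation or from slow elongation, and the ratio does not separate them. In neurons much protein synthesis occurs near the nucleus, but many mRNAs are carried into dendrites and axons and are held there with few ribosomes. Ribosomal protein mRNAs begin with a run of pyrimidines, the TOP motif, through which mTOR signalling sets their translation.

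The control libraries held 19245717 to 24750901 footprint reads and 19138650 to 22779768 RNA reads on listed genes, and the median gene had 571 to 742 reads. A ranked gene had at least 305 reads in each control library. The counting error of its log2 ratio of reads, taken without the pseudocount, was at most 0.11, with a median of 0.06. The pseudocount makes the counting error of TE itself smaller, most of all at low signal. The SD of a gene's TE over the 3 control pairs had a median of 0.09 and was above that gene's counting error without the pseudocount for 5045 of the 6725 genes. Markers of pyramidal neurons, astrocytes and oligodendrocytes were present in every control library. Summed RNA signal of 11 choroid plexus markers differed between controls, at 782 and 699 in replicates 1 and 2 and 72.0 in replicate 3. In bulk tissue, fewer cells of a type and less RNA per cell cannot be told apart, and a TE is an average over all cells that hold the mRNA.

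Most genes had similar ratios, and a minority lay far from the median. The 25th and 75th percentiles of TE were -0.45 and 0.45, and the 95th percentile was 5.62-fold above the 5th. The extremes were 3.46 for Rnasek and -5.65 for 1200014J11Rik. In all, 527 genes (7.84%) had a mean TE above 1 and 601 (8.94%) one below -1, while 52 lay above 2 and 57 below -2. Across genes, the 3 control pairs had Pearson correlations of 0.974 to 0.977 with each other (n = 6725 genes, which are not independent replicates). The 100 highest genes held 7.71 to 8.41% of the control footprint reads and 1.57 to 1.74% of the RNA reads. The 100 lowest held 0.758 to 1.58% of the footprint reads and 16.1 to 18.2% of the RNA reads, of which the single gene Gm20594 took 12 to 14%.

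**Figure D1:**
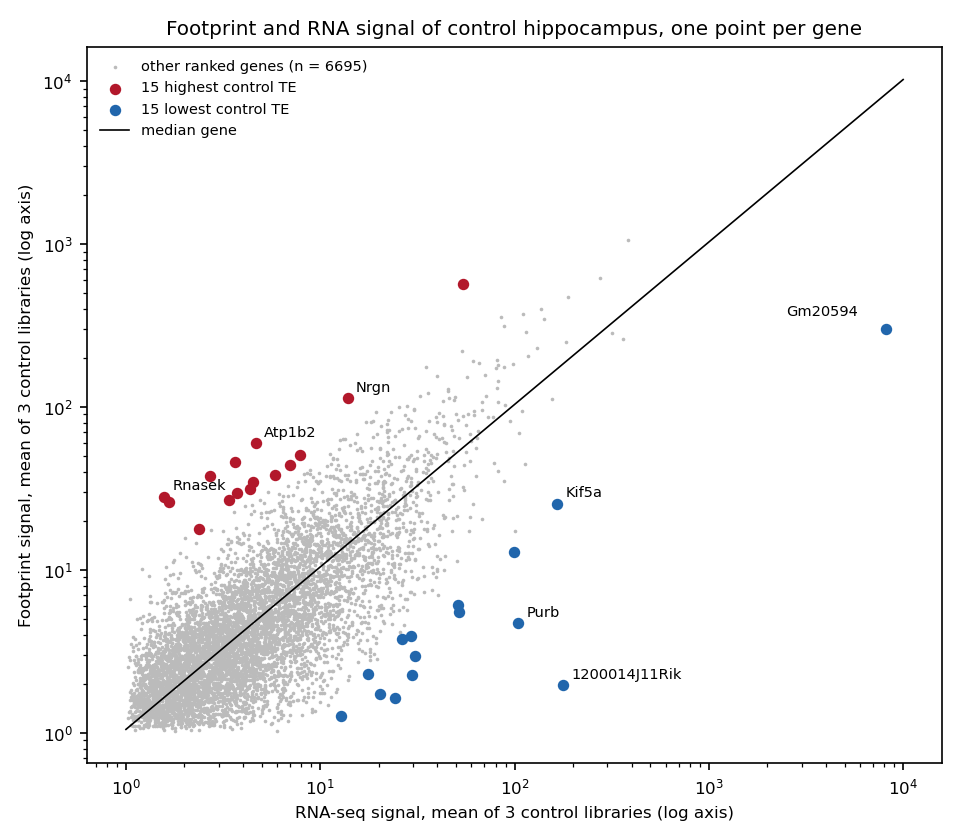
Footprint signal against RNA signal, each the mean of 3 control libraries on log axes, with 1 point for each of the 6725 ranked genes and a line for the ratio of the median gene. The 15 genes with the highest TE (red) lie above the cloud of points and the 15 lowest (blue) below it, with Gm20594 at the far right and 1200014J11Rik at the lower right.

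Rnasek, Atp1b2, Sncb, Rab7 and Vgf were among the genes with the highest ratios, all above 3, and Nrgn was at 2.90. Rnasek, a small membrane protein that binds the vacuolar proton pump, had footprint signals of 24.3, 27.6 and 32.6 in control replicates 1, 2 and 3 and RNA signals of 1.34, 1.51 and 1.88. All 3 footprint values were more than 10 times the RNA values of the same number, and TE was 3.46 ± 0.04 (SD, n = 3), 11 times the ratio of the median gene. Rab7, the small GTPase of late endosomes, had footprint signals of 24.7, 25.5 and 28.3 and RNA signals of 1.44, 1.60 and 1.93, with a TE of 3.32 ± 0.06. Rnasek and Rab7 thus combined an RNA signal near the minimum for ranking with a footprint signal far from it.

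The sodium-potassium pump, which restores the ion gradients that neurons spend on firing, also had a gene near the top. Atp1b2, a beta subunit found in glia and neurons, had footprint signals of 62.4, 54.2 and 62.9 against RNA signals of 4.48, 4.78 and 4.70, with a TE of 3.39 ± 0.15. Atp1b2 was picked by these same control values.

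The other leading genes included several neuronal proteins. Vgf, the precursor of secreted neuropeptides, had footprint signals of 52.0, 40.3 and 44.7, RNA signals of 4.08, 3.58 and 3.20, and a TE of 3.30 ± 0.14. Sncb, the presynaptic protein beta-synuclein, had a TE of 3.35 ± 0.21. Nrgn, the postsynaptic calmodulin-binding protein neurogranin, had footprint signals of 92.7, 115 and 132, RNA signals of 12.5, 13.7 and 15.4, and a TE of 2.90 ± 0.10. Then came the cytoplasmic linker protein Clip3 (2.67 ± 0.14), the ubiquitin-binding shuttle protein Ubqln2 (2.66 ± 0.05), the synaptic vesicle phosphoprotein Syn1 (2.63 ± 0.13) and the leucine-rich repeat membrane protein Lrrn2 (2.57 ± 0.05). The last 4 of the 15 were Pdia3, a disulfide isomerase of the endoplasmic reticulum (2.52 ± 0.21), the beta-tubulin Tubb4a (2.50 ± 0.13), Eif1, which guides the choice of the start codon (2.46 ± 0.13) and the microtubule-end protein Mapre3 (2.46 ± 0.12). The 16th gene, Phyhipl, followed at 2.44 ± 0.08, so the step at the edge of the group was smaller than the SD.

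At the other end, a pair of genes lay apart from all others and varied widely between pairs. 1200014J11Rik had footprint signals of 1.53, 2.61 and 1.75 and RNA signals of 326, 147 and 60.7, with TE values of -7.03, -5.39 and -4.54. The footprint values were near the minimum for ranking in all 3 libraries, and the RNA signal of replicate 1 was more than 5 times that of replicate 3. Gm20594, a predicted gene similar in sequence to the large mitochondrial ribosomal RNA, had footprint signals of 89.9, 246 and 571 and RNA signals of 9334, 7104 and 8086, with TE values of -6.70, -4.88 and -3.87. Here it was the footprints that differed between replicates. The sources used here do not say how reads that match several places were treated, so the origin of the reads on Gm20594 is uncertain.

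Purb, a protein that binds purine-rich single-stranded DNA and RNA, was the next lowest gene. Its footprint signals were 3.97, 5.97 and 4.26 and its RNA signals 113, 98.7 and 100.6, and its TE of -4.24 ± 0.34 corresponds to 0.0528 times the ratio of the median gene. The nuclear proteins Tcf20 (-3.30 ± 0.20), Ankrd12 (-3.26 ± 0.12) and Zfp644 (-3.04 ± 0.11), the first a transcriptional coregulator and the last a zinc finger protein, came next together with Rapgef4 (-3.04 ± 0.16), the cAMP-activated exchange factor Epac2, and Crebrf (-3.0 ± 0.10), a regulator of CREB3-type transcription factors. Tcf20 had footprint signals of 1.88, 1.54 and 1.48 against RNA signals of 24.1, 22.5 and 26.5.

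Several of the 15 lowest genes encode large signalling, motor or cytoskeletal proteins. They were the spine scaffold spinophilin, Ppp1r9b (-2.92 ± 0.19), the calmodulin-stimulated adenylyl cyclase Adcy1 (-2.88 ± 0.16), the kinesin motor Kif5a (-2.68 ± 0.30) and the spectraplakin Macf1 (-2.55 ± 0.11). Kif5a had footprint signals of 29.8, 23.2 and 23.7 and RNA signals of 155, 160.2 and 180.4. Its RNA values were all at least 5 times its footprint values. The remaining members were Ftl1, the ferritin light chain, whose mRNA carries an iron-responsive element (-2.66 ± 0.24), the ubiquitin ligase adaptor Spop (-2.63 ± 0.16) and the histone methyltransferase Whsc1 (-2.53 ± 0.04). The dendritic mRNA Ddn stood just outside, at -2.52 ± 0.23.

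**Figure D2:**
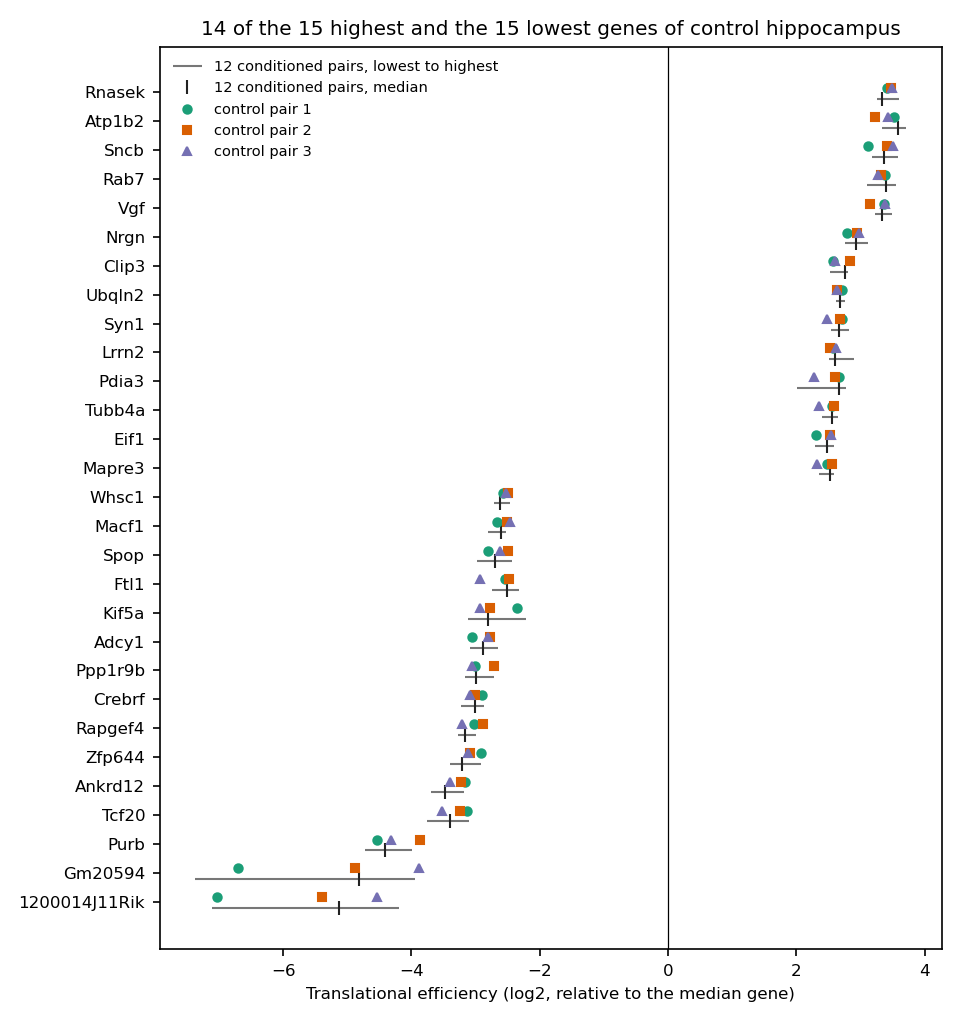
TE (log2, relative to the median gene) of 14 of the 15 highest genes and of the 15 lowest: coloured symbols are the 3 control pairs, the grey line spans the 12 conditioned pairs and the tick is their median. No highest gene had a pair under 2.00 and no lowest gene one over -2.22; 1200014J11Rik and Gm20594 have the widest spans.

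The same ratios were then tested in the 12 pairs from conditioned mice, against a distance of 2-fold from the median gene (limma treat, Benjamini-Hochberg adjusted p under 0.05 over all 6725 genes). Of all ranked genes, 472 (7.02%) were called above and 563 (8.37%) below. All 15 highest control genes were called above, with estimates of 2.45 to 3.56 (standard errors 0.02 to 0.07) and limma adjusted p-values of at most 4.6e-14. All 15 lowest were called below, with estimates 2.52 to 5.35 under the median gene and limma adjusted p-values of at most 1.5e-11. The same held for the 100 highest and the 100 lowest control genes, with 100 of 100 called in each. Ranked by the mean of the conditioned pairs, 94 of the 100 highest and 95 of the 100 lowest genes were those of the control ranking. The separate fit with the replicate number as a block called 436 above and 509 below, and also called all of these 100 and 100 genes.

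The mRNAs of cytosolic ribosomal proteins were low as a group. Of 47 listed large subunit genes 40 were ranked, with a median control TE of -0.84, and 36 were under the median gene. Of 35 small subunit genes 28 were ranked, with a median of -1.01, and 24 were under it. In the conditioned pairs, 19 of the 40 (47.5%) and 13 of the 28 (46.4%) were called below, beside 8.37% of all genes, and 1 was called above. A pseudocount of 5 left 11 and 8 called below and 0 above. The lowest were Rpl13a, with footprint signals of 6.75, 7.10 and 7.29, RNA signals of 39.6, 39.3 and 42.2 and a TE of -2.40 ± 0.04, and Rps12, at -2.20 ± 0.18. Both were picked by these control values. In the conditioned pairs, TE ran from -2.66 to -2.25 for Rpl13a and from -2.51 to -2.06 for Rps12. Rps16 went the other way, with a TE of 1.23 ± 0.26, and Rpl28 was the highest of the large subunit, at 0.77 ± 0.10. The Rps16 call (limma adjusted p = 0.049) was lost with the replicate block (limma adjusted p = 0.071), where 30 ribosomal protein genes were called below and 0 above. It was also lost when any 1 pair with number 2 or 3 was left out (limma adjusted p from 0.079 to 0.14). Ribosomal protein genes have many near-identical copies in the genome, among which the authors' counting may have split reads, so single values are uncertain.

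The start sites of some of these genes are shown because the TOP motif is defined at the first transcribed base. RefSeq (GRCm38.p6) windows of 10 bases before to 20 bases after the annotated start are printed, with the first 5 transcribed bases in capitals. The motif searched was a C followed by 4 bases that are each C or T, on the gene's own strand only.
Rpl13a (chr7:45128726-45128755, minus strand): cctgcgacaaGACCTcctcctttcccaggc
Rps12 (chr10:23787190-23787219, minus strand): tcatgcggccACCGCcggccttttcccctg
Rps6 (chr4:86857348-86857377, minus strand): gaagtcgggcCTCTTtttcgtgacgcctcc
Rpl15 (chr14:18270967-18270996, minus strand): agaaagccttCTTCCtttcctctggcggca
Rpl28 (chr7:4792955-4792984, plus strand): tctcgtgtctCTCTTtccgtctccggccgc
Rps16 (chr7:28350679-28350708, plus strand): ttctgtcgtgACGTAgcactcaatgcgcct
The letters were present at Rps6 (TE -1.07 ± 0.01), Rpl15 (-0.29 ± 0.08) and Rpl28 (0.77 ± 0.10), and not at the annotated starts of Rpl13a, Rps12 and Rps16. Rps6 and Rpl15 were added by choice and lie at neither end of their lists. Rpl35a, also looked at and not printed, had annotated starts with and without the letters. Only 12 (24%) of the ribosomal protein genes with a window had the letters at an annotated start. Whether annotated starts are the first bases transcribed in hippocampus was not tested. Absence of the letters at a single gene therefore does not show that its mRNA lacks the motif, and it was not related to TE. Windows were found for 50 of the 68 ranked ribosomal protein genes (73.5%) and for 79.9% of all ranked genes, which is too few for a comparison of shares, and none was made. Over all 27025 genes of the promoter table, 3.01% had at least 1 annotated start with these letters.

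Other parts of the translation machinery lay nearer the median gene. Among 14 ranked elongation factors and other genes known for TOP mRNAs the median was 0.03, from -1.55 ± 0.11 for Eef1g to 1.65 ± 0.08 for Eef1a2, the neuronal and muscle form of the factor that brings aminoacyl-tRNA to the ribosome. Its widely expressed relative Eef1a1 had a TE of -1.05 ± 0.04 and Eef2, which moves the ribosome along, one of -0.37 ± 0.20. The 31 ranked initiation factors had a median of 0.16. Of the 31, 3 (Eif1, Eif3g and Eif5a), or 9.68%, were called above and 2 (6.45%) below. These shares are near the 7.02% and 8.37% of all genes. With a pseudocount of 5, 1 call each way remained. The lowest of the 31 was Eif4b, a helper of the cap-binding complex, at -2.11 ± 0.18. None of the 55 ranked mitochondrial ribosomal protein genes was called in either direction, and their TE ran from -0.42 (Mrpl18) to 1.05 (Mrps21) with a median of 0.21.

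Genes of energy metabolism were high. The 13 ranked glycolysis genes were all above the median gene, with a median of 1.04. In the conditioned pairs, 7 (53.8%) were called above, beside 7.02% of all genes. The 13 ran from 0.56 ± 0.05 for Pfkl, a phosphofructokinase, to 2.01 ± 0.11 for Ldhb, a lactate dehydrogenase. Of 34 ranked nuclear genes of respiratory complex I, 32 were above 0 (median 0.79) and 8 (23.5%) were called above, the highest being Ndufa11 (1.64 ± 0.19). Of 40 ranked genes of complexes II to V, 36 were above 0 (median 0.76), 13 (32.5%) were called above and 1 (2.5%) below. The exception was Cox7a2l, an assembly factor of respiratory supercomplexes, at -1.44 ± 0.14. Atp5g3, Atp5d and Cox5a, of the ATP synthase and cytochrome oxidase, were near the top at 1.92, 1.85 and 1.8. These counts depended on the pseudocount, and one of 5 left 3 glycolysis genes, 0 of complex I and 8 of complexes II to V called above, with 0 below.

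Protein turnover and the endolysosomal system lay on the same side. All 30 ranked proteasome subunits were above 0, with a median of 0.74. Only 3 (Psmb2, Psmb3 and Psmd3), or 10%, passed the 2-fold test, near the 7.02% called above over all genes. With a pseudocount of 5, 0 did. The list was narrow, from 0.01 for Psmc1 to 1.56 for Psmb2, and Psmc1 was at -0.08 without control replicate 3 and at -0.11 with a minimum signal of 5. All 27 ranked genes of the vacuolar proton pump and of lysosomal enzymes were above 0 (median 0.76), and 10 (37.0%) were called above, led by Grn, the lysosomal growth factor progranulin (2.12 ± 0.13), and the glucosidase Gaa (1.65). The lowest, Atp6v1a at 0.12, was at -0.01 with a minimum signal of 5, and 5 of the 10 calls were made with a pseudocount of 5. Of 26 chaperones and chaperonins 25 were above 0 (median 0.67) and 6 (23.1%) were called above, among them the endoplasmic reticulum proteins Hspa5 (1.39), Hsp90b1 (1.43), Calr (1.12) and Pdia3.

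Secreted neuronal proteins had the highest median of all lists, 1.31 over 19 ranked genes. All 19 were above 0 and 12 (63.2%, beside 7.02% of all genes) were called above. Besides Vgf they included the granin-like Pcsk1n (2.06 ± 0.31), the peptides somatostatin (Sst, 1.94) and neuropeptide Y (Npy, 1.76), the granins Chga (1.60) and Chgb (1.55), and Cpe, which trims peptide precursors (1.31). The growth factor gene Bdnf, at 0.16, and the peptide gene Vip, at 0.14 ± 0.09, were close to the median gene.

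Among synaptic vesicle and membrane fusion genes, 28 of 35 were above 0 (median 0.58). Of the 35, 9 (25.7%) were called above, beside 7.02% of all genes, and 0 below. The called genes included Syn1, the SNARE protein Vamp2 (1.97) and the vesicle GTPase Rab3a (1.69). Snap25, the partner of Vamp2 and syntaxin, had a TE of 1.09 ± 0.07 and was not called (limma adjusted p = 0.17). The scaffolds that organise both sides of the synapse were split, with a median of -0.09. Of 32, 4 (12.5%) were called above and 7 (21.9%) below, beside 7.02% and 8.37% of all genes. The active zone proteins Rims2 (-2.25 ± 0.09), Rims1 (-1.83) and Erc2 (-1.50) were low, while Bsn (1.1), a large protein of the same structure, was called above (limma adjusted p = 0.017). The Bsn call was lost with the replicate block (limma adjusted p = 0.096) and without number 1 or number 2 (0.94 and 0.056). Of the postsynaptic members, Homer2 (-1.92), Homer1 (-1.15 ± 0.08) and Dlg2 (-1.10) were called below. With a pseudocount of 5, 1 scaffold gene was called above and 4 below, and Bsn, Homer1 and Dlg2 were not called.

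Receptor groups held a few high members, while channel groups had calls at about the rate of all genes or under it. In the 19 ranked glutamate receptor genes (median 0.25), 4 (21.1%) were called above, beside 7.02% of all genes, and 1 below. Those above were Cacng8, an AMPA receptor auxiliary subunit (2.33 ± 0.04), Grin1, the subunit common to NMDA receptors (2.19), the metabotropic Grm2 (1.53) and Cacng3 (1.14). The NMDA receptor partners Grin2a and Grin2b were at -0.04 and 0.11, and Grin2b was at -0.01 with a minimum signal of 5. Among 13 GABA receptor genes, Gabra2 (1.84 ± 0.06) and Gabrb1 (1.56) were called above and 0 below. The 40 ranked potassium channel genes had a median of -0.19, with 1 called above (2.5%) and 3 below (7.5%), among them Kcna2 (-1.38 ± 0.09) and Kcnc2 (-1.30). The 22 sodium and calcium channel genes had a median of 0.03, from Scn2b (-1.19 ± 0.10) to Cacna2d2 (1.19 ± 0.13), with 1 called above (4.55%) and 2 below (9.09%). Over all genes the shares were 7.02% above and 8.37% below, so the channel lists do not stand out. A pseudocount of 5 left 2 glutamate receptor genes called above and no potassium, sodium or calcium channel gene called in either direction.

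mRNAs known to be carried into dendrites lay at both ends. Of 18 ranked, 3 (16.7%) were called above and 5 (27.8%) below, with a median of -0.02. Over all genes the shares were 7.02% above and 8.37% below. A pseudocount of 5 left 3 called above and 4 below. Camk2a, the calcium-dependent kinase of synaptic plasticity, had footprint signals of 189.5, 172 and 163 and RNA signals of 34.7, 30.0 and 40.1 in the 3 controls. Its TE was 2.40, 2.45 and 1.94, so replicate 3 was the lowest. Nrgn and Actb (1.78 ± 0.07) were also called above, while Ppp1r9b, Ddn, Map2 (-1.35), Itpr1 (-1.29) and Psd (-1.17) were called below. Arc, an immediate-early gene whose mRNA moves to active synapses, had a control TE of 0.23 ± 0.25. Egr1, a transcription factor induced by activity, was the highest of 14 ranked immediate-early genes, at 1.73 ± 0.05. It was called above, and Homer1 below, but neither with a pseudocount of 5.

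Structural genes ranged widely. Over all genes, 7.02% were called above and 8.37% below. Of 31 ranked cytoskeletal genes, 10 (32.3%) were called above, among them Tubb4a, the actin-binding Pfn1 (2.21) and Cfl1 (1.92) and the actin gene Actg1 (1.60). Sptbn1, a spectrin, was the lowest at -2.41 ± 0.07, and Map2 and Tuba1a (-1.12) were also called below. Of 41 G protein and small GTPase genes, 8 (19.5%) were called above, including Gng3 (2.29), Gnao1 (2.07) and Rab11b (1.81) beside Rab7. Another 3 (7.32%) were called below, namely Nras (-1.41 ± 0.01), Rap2a (-1.40) and Gna13 (-1.40). None of these 3 was called with a pseudocount of 5, nor was Tuba1a.

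Several nuclear regulators were low. Of 57 ranked zinc finger genes with names starting Zfp, Zkscan or Zscan, out of 277 in the table, 51 were below 0 (median -0.59). Of the 57, 11 (19.3%) were called below, beside 8.37% of all genes, led by Zfp644, Zfp106 (-2.36) and Zfp148 (-1.93). The other genes of the 277 did not reach the minimum signal, so the 57 are not the whole family. Of 36 ranked chromatin regulators, 8 (22.2%) were called below, among them Chd3 (-2.01 ± 0.19) and Ash1l (-1.70). Another 2 (5.56%, beside 7.02% of all genes) were called above, among them the deacetylase Sirt2 (1.19). The 49 ranked splicing and RNA-binding protein genes had a median of -0.07, with Hnrnpc (1.29 ± 0.11) called above and Rbfox2 (-1.50 ± 0.04) below. The Hnrnpc call was lost without number 1 (limma adjusted p = 0.054) and with a pseudocount of 5. That pseudocount left 4 zinc finger genes and 3 chromatin regulators called below and 0 above.

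mRNAs known for upstream open reading frames, short coding stretches ahead of the main one that hold back ribosomes, were below the median gene in 10 of 13 cases (median -0.55). Amd1, an enzyme of polyamine synthesis, was the lowest at -1.62 ± 0.06. It was 1 of 2 called below, or 15.4% of the 13, beside 8.37% of all genes. Atf4, the transcription factor of the integrated stress response, had footprint signals of 2.24, 2.60 and 2.43 and RNA signals of 5.46, 6.01 and 5.66, and a TE of -1.0 ± 0.01. Its estimate in the conditioned pairs was -0.96 and did not pass the 2-fold test. Among 15 ranked iron-related, antizyme and selenoprotein mRNAs, Ftl1, the deiodinase Dio2 (-2.01) and Selt (-1.56), or 20%, were called below and 0 above. Of 15 cholesterol synthesis genes 13 were above 0 (median 0.57), from Insig1 (-1.22 ± 0.13) to Srebf2 (1.48 ± 0.20), and both of these were called, though not with a pseudocount of 5. None of the 26 listed mitochondrially encoded genes was in the deposited tissue tables, and of the 14 genes chosen to be named whatever their rank, Gapdh, Fth1, Malat1 and Meg3 were not either.

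**Figure D3:**
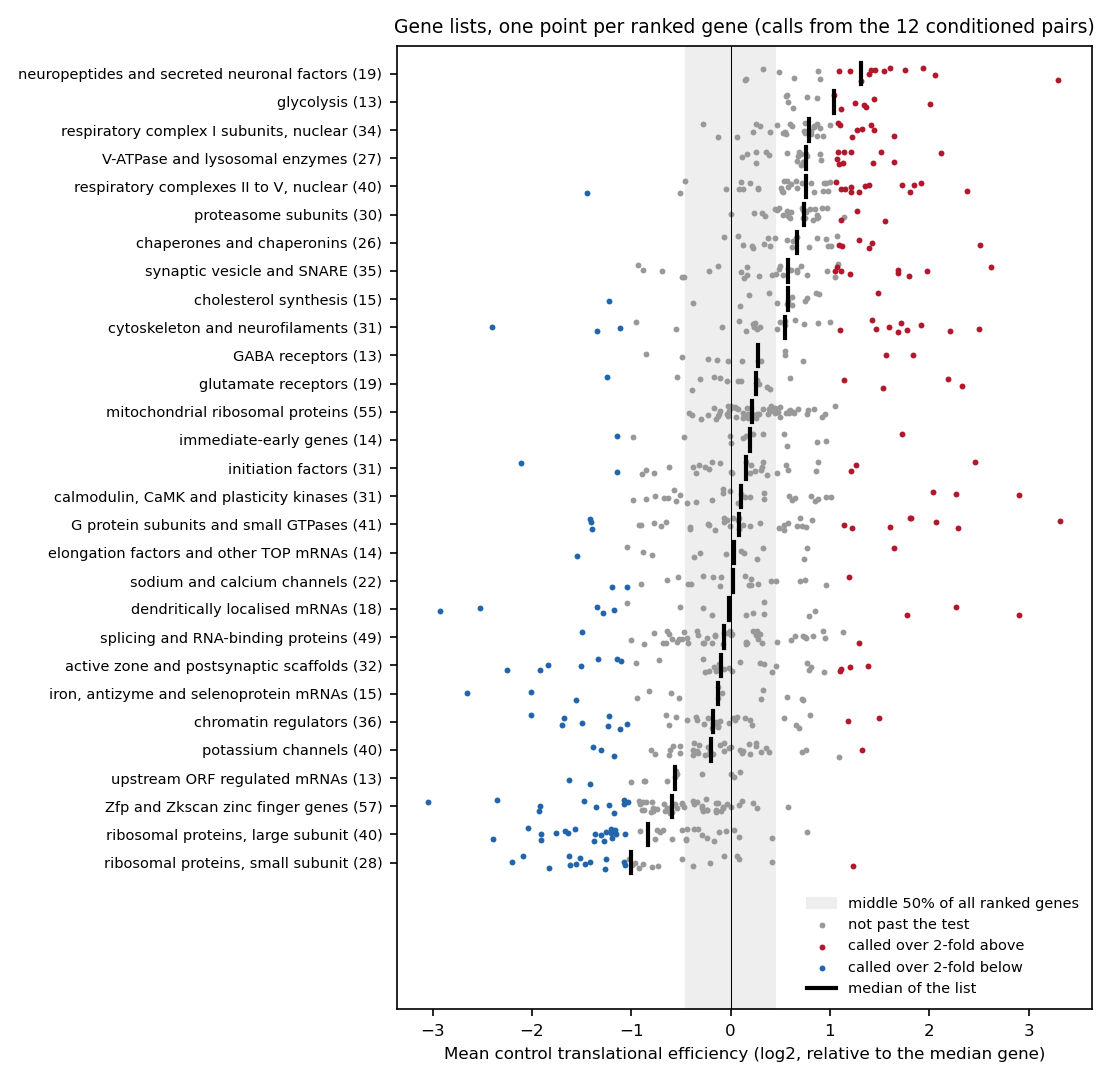
Mean control TE (log2, relative to the median gene) of the ranked genes of the 29 lists with at least 10 of them, 1 point per gene, ordered by the list's median (black bar), with the number of ranked genes in brackets. Red and blue points passed the 2-fold test in the 12 conditioned pairs; the 2 ribosomal protein lists lie lowest, at -1.01 and -0.84, and the secreted neuronal factors highest, at 1.31.

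Genes of glia and of the choroid plexus could also be read. The myelin genes Mbp, Mag and Mog had TE values of 1.21, 1.16 and 1.27 and were called above, while Mobp (-0.51) and Mal (-0.99) were not called. Of the 3, Mag alone was called with a pseudocount of 5. Ttr, the transport protein secreted by the choroid plexus, had footprint signals of 1535, 1547 and 108 in control replicates 1, 2 and 3 and RNA signals of 555, 549 and 41.3. Footprints and RNA were both low in replicate 3, and TE differed little, at 1.45, 1.46 and 1.31. In the conditioned pairs, however, its TE ran from 0.03 to 2.53, and the call (limma adjusted p = 0.0097) was lost with the replicate block (limma adjusted p = 0.15) and without number 1 or number 2 (0.060 and 0.17).

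In the genes with the largest spread between control pairs, the order of these pairs was mostly that of the replicate numbers in the other groups. In the 12 conditioned pairs, TE differed between the 3 numbers for 3472 of 6725 genes, or 51.6% (limma moderated F test, Benjamini-Hochberg adjusted p under 0.05). All 15 genes with the largest control SD, 0.37 to 1.43, were among them. In 14 of the 15 the number with the highest TE was the same in control and conditioned mice, and in 13 the lowest was. These 15 were chosen for their spread, and the same agreement was not counted over all genes. Of the 15 highest genes 9 and of the 15 lowest 14 differed between numbers.

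Uqcrq, a subunit of respiratory complex III, shows the pattern. Its footprint signals in controls were 16.1, 18.5 and 18, and its RNA signals 1.99, 1.40 and 4.82. RNA was high in replicate 3 alone, and TE was 2.50, 2.99 and 1.65. In conditioned mice, the mean TE of numbers 1, 2 and 3 was 2.62, 2.99 and 1.60 (limma adjusted p = 3.3e-20). For Gm20594 the corresponding means were -6.93, -4.81 and -4.21, and for 1200014J11Rik -6.61, -5.16 and -4.29. Vegfb, an endothelial growth factor, had a TE of 0.41 in control replicate 2 and of -0.43 and -0.29 in replicates 1 and 3. Lars2, a mitochondrial leucyl-tRNA synthetase, had TE values of 0.58, 1.28 and 1.26 in the 3 controls. Its footprint signal was 326, 771 and 752, low in the same replicate as that of Gm20594, and the origin of its reads is uncertain in the same way. The labels do not say what the numbers stand for.

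**Figure D4:**
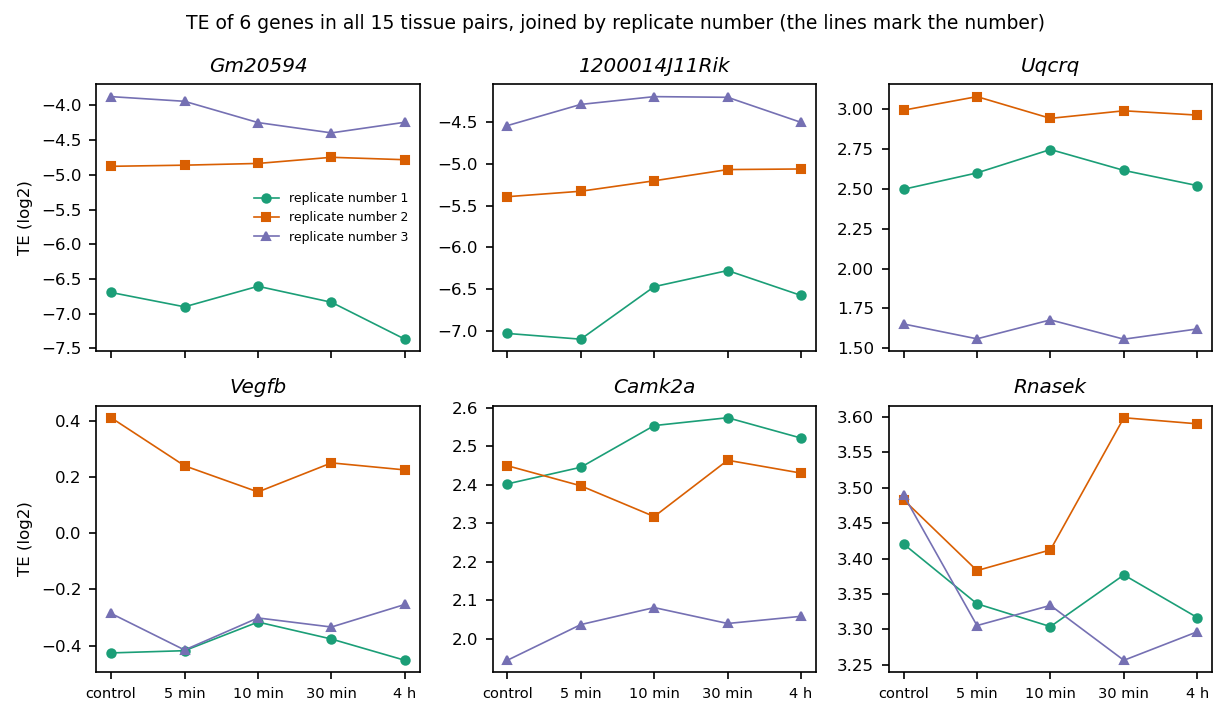
TE (log2) of 6 genes in the 15 tissue pairs, by group on the x axis, with symbols and lines for the 3 replicate numbers. In Gm20594, 1200014J11Rik and Uqcrq the 3 numbers keep 1 order in every group, in Vegfb number 2 is the highest in every group, and in Camk2a number 3 is the lowest in every group; Rnasek varies between 3.26 and 3.60.

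Between the times after conditioning, no ranked gene passed the test of a difference in TE without the replicate block (0%; limma F test, Benjamini-Hochberg adjusted p under 0.05; 40 genes had an unadjusted p under 0.05). That fit counts the differences between replicate numbers as noise, which lowers its power, so its lack of calls does not show that TE was unchanged. With the block, 17 genes (0.253%) passed, and 474 had an unadjusted p under 0.05 in the limma F test. Of the 100 highest control genes Pcsk1n was among them, at 1.87, 1.90, 2.10 and 2.20 after 5, 10 and 30 min and 4 h, and of the 100 lowest Nrsn1, at -2.55, -2.48, -2.27 and -2.21, and Ccni, at -2.30, -2.27, -2.0 and -2.07 (limma adjusted p = 0.0034, 0.0015 and 0.0032). Each stayed on its side of the median gene at every time. Arc (limma adjusted p = 6.2e-06 with the block) had mean TE values of -0.01, 0.34, 0.59 and 0.20 at these times, beside 0.23 in controls.

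The control ranking was set beside the 1 pair of libraries from hippocampal primary culture and the 1 pair from stem cells. These have no replicates, no test was made, and their tables were normalised separately. In culture, 5870 of the ranked genes had a signal of at least 1 in both libraries, and Pearson's r across these genes was 0.869. Of the 100 highest control genes, 97 had a value in culture, all 97 were above the culture's median gene and 91 were above 1. Of all 5870 shared genes, 6.25% were above 1. Of the 100 lowest, 74 had a value, all 74 were under the median gene and 60 were below -1, beside 7.56% of the shared genes.

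In stem cells, 4306 ranked genes were shared and r was 0.628. Only 40 of the 100 highest genes had a value there, and all 40 were above 0. Of the 44 lowest genes with a value, 42 were below 0 and 23 below -1, beside 9.61% of the shared genes. Rab7 was high in each source, at 3.32 in control hippocampus, 3.21 in culture and 3.17 in stem cells, as was Eif1, at 2.46, 1.68 and 3.23. Ftl1 was low in each, at -2.66, -2.11 and -4.52.

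Other genes were closer to the median gene outside the tissue. Kif5a had a TE of -2.68 in control tissue, -0.82 in culture and -0.15 in stem cells, Sptbn1 had -2.41, -0.41 and -0.09, and Ankrd12 had -3.26, -0.97 and -0.49. These genes were picked for extreme values in the tissue, so less extreme values elsewhere are in part to be expected. In stem cells the footprint and RNA signals were only 2.14 and 2.05 for Kif5a and 1.06 and 1.53 for Ankrd12, where the pseudocount weighs most. Rapgef4 was at -3.04 in tissue and -0.76 in culture, with no value in stem cells, and Nrgn at 2.90 and 1.38. The ribosomal protein genes had a median of -0.98 in control tissue, -0.72 in culture and -0.25 in stem cells. They were below the median gene for 60, 59 and 43 of the 68. Lars2 had a TE of 1.04 in tissue, 0.93 in culture and 8.89 in stem cells, where its footprint signal was 1787 and its RNA signal 2.30, with the same uncertainty about the origin of the reads. Gm20594 was at -1.88 in culture and -4.47 in stem cells, so that it was below the median gene in each source but by different amounts.

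**Figure D5:**
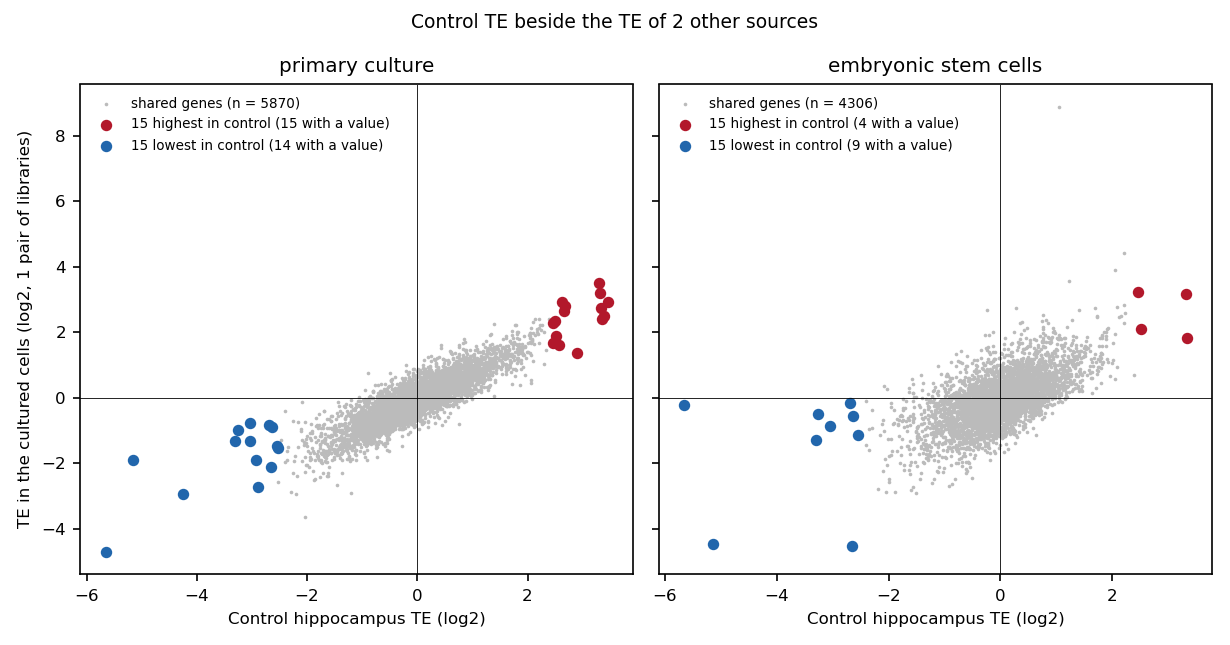
TE in the primary culture (left, 5870 genes) and in stem cells (right, 4306 genes), each from 1 pair of libraries, against mean control TE (both log2, relative to the median gene). The 15 highest control genes (red) are above 0 wherever they have a value, and many of the 15 lowest (blue) lie closer to 0 than in the tissue; the single point near 9 on the right is Lars2.

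The ranking did not use gene length. The RefSeq span of the gene from first to last base, introns included, had a median of 17.7 kb for 99 of the 100 highest genes, 31.2 kb for 6677 of all ranked genes and 53.0 kb for the 100 lowest. Ribosomal protein genes had a median span of 3.21 kb. Across the 6725 genes, TE had a Pearson correlation of 0.439 with the log2 footprint signal and of -0.242 with the log2 RNA signal, both of which enter TE. The sources used here do not say over which parts of a transcript reads were counted, and a pseudocount of 1 pulls the TE of genes with low signal towards 0.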

How the data were processed

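Footprint and RNA libraries of mouse hippocampus, 15 of each kind, were analysed as the authors deposited them. Per the submitters' processing notes, CASAVA 1.8.2, Bowtie 1.1.1 and the genome build mm9 were used; how reads were counted, by strand and with multiple matches, is not stated there. The deposited unit is called signal: it is not named in the file headers, and its values are whole reads divided by 1 number per library (all within 0.001 reads). TE was computed as log2 with a pseudocount of 1. It was tested in the 12 conditioned pairs with limma 3.58.1 in R 4.3.3 (treat at a distance of 1, or moderated F tests, with a trend; Benjamini-Hochberg over all 6725 genes), after a check on simulated data. The simulated pairs varied independently of each other, so the check does not cover variation shared by pairs of the same replicate number. Values of this unit are not counts, so no count test was the main result.

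Pairs share the replicate number of the labels. Deviations of footprints and RNA from their group means correlated at 0.45 to 0.74 across genes for libraries with the same number (15 pairs) and at -0.61 to 0.27 for other numbers. Deviations from a mean over 3 libraries tend to oppose each other by construction. Libraries of the same number thus varied together. Whether a pair came from the same sample cannot be told, since anything shared by all libraries of a number would give the same pattern. The main fits had no block, and fits with it were an alternative, as were other pseudocounts, filters, centring and leaving out each pair.

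Named genes were the 15 highest and 15 lowest in control TE, up to 5 of the 15 with the largest control SD, the highest and lowest member of each list and a fixed set of 14. Others named from a list or from the block fit were chosen after their values were seen. Some genes that the rule or the lists take in are not reported here. The members and lists were chosen with earlier results of these data known. The genes nearest the minimum signal were 1600014C10Rik, Gm5113 and Itpr2 inside (TE -0.74, -0.41 and -0.56) and Gprin3, Armc9 and Psmd9 outside (0.21, 0.30 and 0.45). Sequences and gene spans came from RefSeq tables of GRCm38.p6, another build than the authors', matched by RefSeq identifier.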

Additional observations from a re-analysis of the deposited data

How the results depend on the processing

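Of 6725 genes, 472 were called over 2-fold above and 563 below the median gene. With a pseudocount of 0 this became 714 and 840, with a pseudocount of 5 it became 219 and 181, and with a minimum signal of 5 it became 182 and 171 of 1769 genes, fewer being tested. Tested against any distance in place of 2-fold, 3126 were above and 3136 below. With the replicate block, 17 genes in place of 0 differed between times; of 127 genes called over 2-fold and followed singly, it ended the calls of Ttr, Rps16 and Bsn and no other. A pseudocount of 5 ended 38 of these 127 calls. With a minimum signal of 5, 70 of the 127 genes were not tested, 54 calls held and 3 were ended, those of Ttr, Bsn and Calr. Between replicate numbers, 1132 of 1769 genes in place of 3472 of 6725 were called with a minimum of 5. Leaving out 1 conditioned pair or 1 replicate number gave 457 to 483 genes above and 542 to 561 below. Leaving out 1 conditioned pair gave 0 between times and 2866 to 3572 between numbers.

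The median control TE of the 100 highest genes was 2.02 and of the 100 lowest -2.04. It was 2.21 and -2.44 with a pseudocount of 0, 1.63 and -1.47 with one of 5, 1.67 and -1.68 with a minimum of 5, and 2.08 and -2.13 with no filter on low values. Leaving out 1 control pair gave 2.00 to 2.02 and -2.09 to -2.03. The genes at the ends also changed. With a minimum of 5, where genes with low signal leave the ranking, 51 of the 100 highest and 27 of the 100 lowest were shared. Under the pseudocounts and with no filter, 70 to 84 were. Of the 15 highest and of the 15 lowest, 5 each were shared with a minimum of 5, and 10 to 13 under the pseudocounts and with no filter. With a minimum of 5 the median of the scaffold list turned from -0.09 to 0.22, of the initiation factors from 0.16 to -0.23, of the immediate-early genes from 0.19 to -0.93, of the elongation factors from 0.03 to -0.01 and of the sodium and calcium channels from 0.03 to -0.40 (-0.04 without control replicate 1). The dendritic list went from -0.02 to 0.003 with no filter. The planned count test on recovered reads was not run.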
